A study of Homo sapiens with 12 samples.

Results

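Chemokines and cytokines that epithelial cells release were described in head and neck squamous carcinoma cells with and without an shRNA against TP63. The set was given by name and holds 9 genes: CXCL14, CXCL1, CXCL2, CXCL3, CXCL8, CCL20, IL6, CSF2 and LIF. Of these, 8 had a probe set on the array listed with their symbol and no other, and they are described here among 18404 genes tested. CSF2, which encodes the growth factor GM-CSF, was not analysed here. The cells were FaDU and JHU-029, established human cancer lines of squamous type from the head and neck, and they were infected with a lentivirus carrying an shRNA 72 hours before RNA was taken. The 4 groups were FaDU with shTP63, FaDU with shControl (a control vector), JHU-029 with shTP63 and JHU-029 with shControl, with 3 arrays in each. The product of TP63, p63, is a transcription factor that basal cells of squamous epithelium depend on, and the series title places it with ACTL6A, a chromatin remodelling subunit, upstream of Hippo-YAP signalling. The labels give no hairpin sequence, name 3 possible culture media without saying which line grew in which, and do not say whether replicates were separate cultures. The p-values therefore measure only the spread between these samples, which may be technical. In RNA from bulk cultures, fewer cells of a type and less RNA per cell cannot be told apart. TP63's own level was not analysed here.

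Chemokines are small secreted proteins that direct the movement of cells carrying the matching receptor. CXCL1, CXCL2, CXCL3 and CXCL8 are neutrophil attractants that act through CXCR2 (CXCL8 also through CXCR1), and their genes lie in a cluster on chromosome 4. CCL20 attracts CCR6-bearing lymphocytes and dendritic cells to epithelium, and CXCL14 is a chemokine that normal squamous epithelium makes without stimulation. IL6 and LIF are related cytokines: IL6 binds IL6R and LIF binds LIFR, and both complexes signal through the shared chain gp130 (gene IL6ST) to the kinases of the JAK family and the factor STAT3. NF-kB and AP-1 are the transcription factors best known for inducing CXCL8, IL6 and CCL20 in epithelial cells.

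The promoters of the members are shown beside the differences between the lines under shControl. CXCL1, CXCL2, CXCL3, CXCL8, CCL20 and LIF were higher in FaDU than in JHU-029, and CXCL14 and IL6 were lower. Each sequence is the 150 bases before the gene start, 5′ to 3′ on the gene's strand, from RefSeq on GRCh38.p14. Of the 9 genes, 8 were in the promoter table, LIF was not, and the 7 measured ones are printed. Capitals mark GGNNTTTCC on either strand, a form of the NF-kB site, and TGANTCA, the AP-1 site, and both patterns were chosen with these sequences in view. CXCL1 (chr4:73869243-73869392, plus strand), CXCL2 (chr4:74099196-74099345, minus strand) and CXCL3 (chr4:74038690-74038839, minus strand) are close copies of each other.
CXCL1: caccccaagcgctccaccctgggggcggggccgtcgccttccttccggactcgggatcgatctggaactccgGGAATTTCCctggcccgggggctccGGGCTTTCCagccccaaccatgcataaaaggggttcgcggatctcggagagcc
CXCL2: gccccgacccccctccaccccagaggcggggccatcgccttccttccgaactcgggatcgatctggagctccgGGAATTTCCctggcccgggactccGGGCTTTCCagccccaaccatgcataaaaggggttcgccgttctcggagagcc
CXCL3: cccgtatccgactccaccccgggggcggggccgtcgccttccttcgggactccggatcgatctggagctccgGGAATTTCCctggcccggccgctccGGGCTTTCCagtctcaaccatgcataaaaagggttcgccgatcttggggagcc
CXCL8 lies at the other end of the cluster (chr4:73740419-73740568, plus strand), IL6 is on chromosome 7 (chr7:22727050-22727199, plus strand), CCL20 on chromosome 2 (chr2:227813692-227813841, plus strand) and CXCL14 on chromosome 5 (chr5:135578992-135579141, minus strand).
CXCL8: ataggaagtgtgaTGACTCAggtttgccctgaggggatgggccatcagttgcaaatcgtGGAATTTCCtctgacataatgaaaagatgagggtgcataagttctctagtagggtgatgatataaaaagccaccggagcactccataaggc
IL6: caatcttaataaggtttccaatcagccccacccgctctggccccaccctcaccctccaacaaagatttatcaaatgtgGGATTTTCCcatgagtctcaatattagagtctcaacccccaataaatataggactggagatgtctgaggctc
CCL20: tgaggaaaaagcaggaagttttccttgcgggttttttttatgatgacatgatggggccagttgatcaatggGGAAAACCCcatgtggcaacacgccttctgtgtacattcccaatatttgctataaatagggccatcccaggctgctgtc
CXCL14: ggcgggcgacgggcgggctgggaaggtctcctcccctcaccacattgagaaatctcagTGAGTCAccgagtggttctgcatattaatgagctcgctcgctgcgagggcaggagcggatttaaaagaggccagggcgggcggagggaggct
The NF-kB pattern was found in 6 of the 7 windows, against 3.45% of 27305 promoter windows of the same length. CXCL1 and CXCL3 held it at -78 and -53 from the gene start, CXCL2 at -77 and -53, CXCL8 at -91, IL6 at -72 and CCL20 at -79 on the opposite strand. CXCL14 had no match to these letters in its window. CXCL1, CXCL2, CXCL3, CXCL8 and CCL20, which held the pattern, were higher in FaDU, and CXCL14, which had no match, was lower. IL6 held the pattern and was lower in FaDU. Whether the pattern bears on the line difference was not tested. The AP-1 pattern was found in 2 of the 7, CXCL8 at -137 and CXCL14 at -92, against 4.14% of all windows. The decamer of the p53 family, searched by name on both strands, matched none of the 7 windows and was found in 3.13% of all windows. Aligned over the window, CXCL1 was 88.7% identical to CXCL2 and 88.1% to CXCL3, and CXCL2 was 86.1% identical to CXCL3, whereas the other pairs among the 7 lay between 39.7% and 49.1%. A match is a description of letters and was not set against binding of any factor.

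The lines differed in these genes more than the knockdown changed most of them. Under shControl, FaDU differed from JHU-029 in 8 of 8 members (limma, adjusted p under 0.05), against 63.8% of all genes tested. Of these, 6 were higher (against 33.4% of all genes) and 2 lower (30.4%), and the 3 FaDU and 3 JHU-029 control arrays did not overlap for any of the 8, against 69.0% of all genes. The median difference over the members was 0.87 on the log2 scale, against 0.05 over all genes. After TP63 knockdown, 3 of 8 members changed in FaDU (CCL20 and LIF higher, CXCL8 lower), against 26.6% of all genes (12.4% higher and 14.2% lower). In JHU-029, 3 of 8 changed (IL6 and CCL20 higher, CXCL14 lower), against 3.15% of all genes (1.80% higher and 1.35% lower). These 580 genes were 229 to 273 without any of 5 arrays (JHU-029 shTP63 replicates 2 and 3 and all 3 JHU-029 shControl arrays), and at least 2 members were called without each. The knockdown and control arrays did not overlap for 4 of 8 members in FaDU (CXCL3, CCL20, IL6 and LIF), against 36.1% of all genes, and for 3 of 8 in JHU-029 (CXCL14, CCL20 and IL6), against 24.9%. The median change of the members was 0.16 in FaDU, against 0.02 over all genes, and 0.02 in JHU-029, against 0 over all genes. The FaDU count rested on single arrays: without FaDU shControl replicate 1, FaDU shTP63 replicate 1, FaDU shTP63 replicate 3, JHU-029 shTP63 replicate 2 or JHU-029 shControl replicate 3, only LIF was called (1 of 8). The change differed between the lines for 3 of 8 members (CXCL14, IL6 and LIF), against 13.2% of all genes (4.97% with the higher change in FaDU and 8.25% with the lower).

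**Figure D1:**
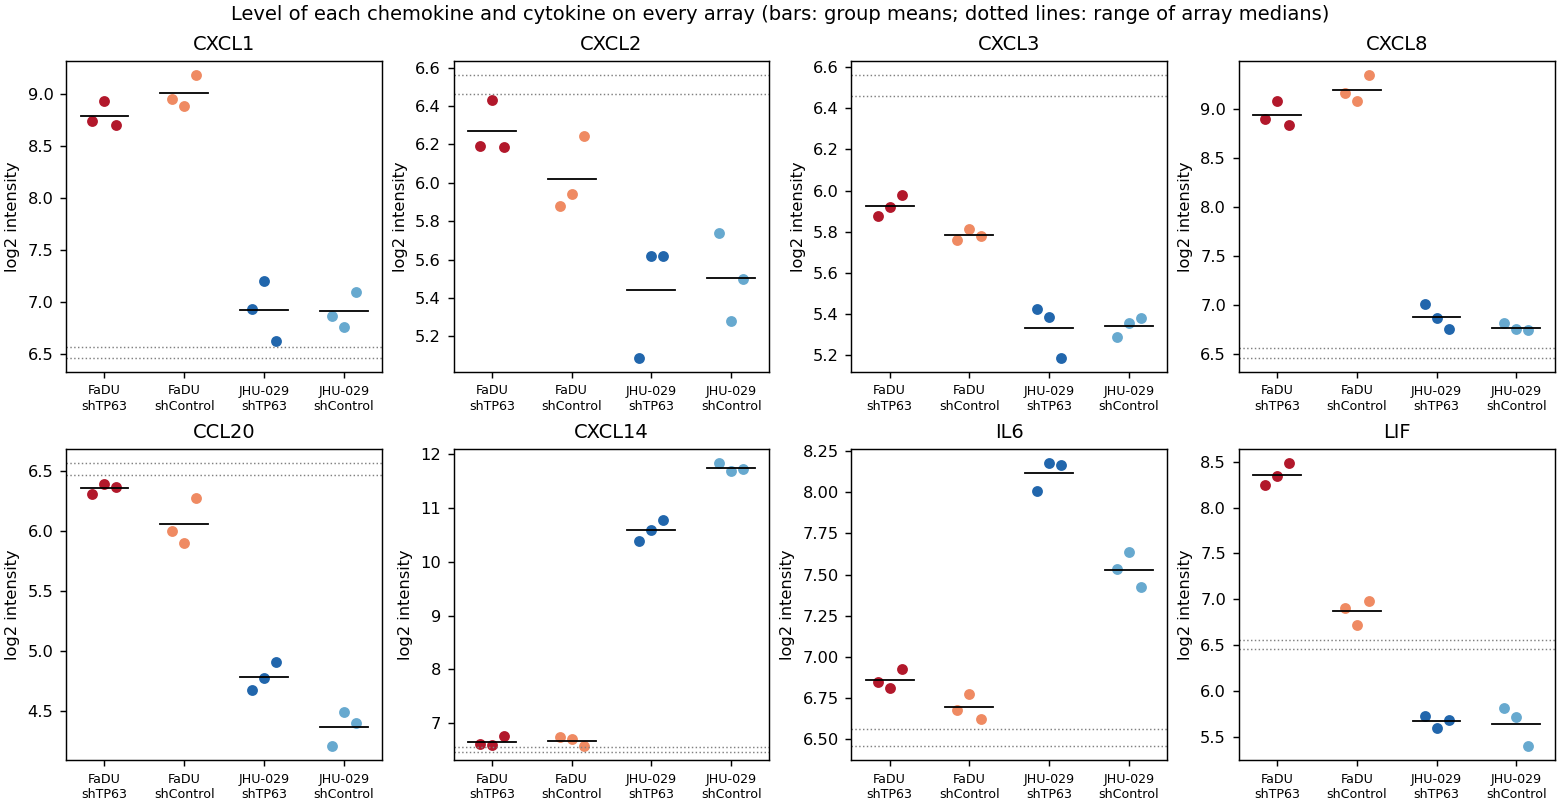
Level of the 8 measured members on each of the 12 arrays. Each panel is a gene, the vertical axis is log2 intensity of its probe set, points are arrays (FaDU shTP63, FaDU shControl, JHU-029 shTP63 and JHU-029 shControl, 3 each), bars are group means and dotted lines give the range of the array medians; CXCL14 lies near the array medians in FaDU and far above them in JHU-029, and LIF stands apart on the 3 FaDU shTP63 arrays. Levels of different panels come from different probe sets and are not compared.

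The neutrophil chemokines were marked by line and little by knockdown. CXCL8 (probe set 8095680), the neutrophil chemokine interleukin-8, had intensities of 478, 543 and 456 in FaDU shTP63 and of 575, 541 and 649.9 in FaDU shControl. In JHU-029 they were 128, 116 and 108 with shTP63 and 112, 108 and 107 with shControl. All 6 FaDU arrays lay above all 6 JHU-029 arrays, while the knockdown and control arrays overlapped in each line. CXCL8 was 5.39-fold higher in FaDU shControl than in JHU-029 shControl (log2 difference 2.43, SE 0.09, adjusted p = 8.42e-11). It fell by 0.26 on the log2 scale after knockdown in FaDU (SE 0.09, limma adjusted p = 0.0458), and this call was lost without any of 8 of the 12 arrays, with adjusted p up to 0.17. Those arrays were FaDU shTP63 replicates 1 and 3, FaDU shControl replicates 1 and 3, JHU-029 shTP63 replicate 2 and all 3 JHU-029 shControl arrays. The titles of 2 of the 3 FaDU shControl arrays (replicates 1 and 2) carry the word new, which is not explained, and without those arrays the change was -0.4. In JHU-029 the change was 0.11 (95% interval -0.08 to 0.3, adjusted p = 0.685). CXCL8 means there, 6.87 with shTP63 and 6.77 with shControl on the log2 scale, lay a little above the array medians (6.46 to 6.51). A small change may thus not have been measurable. The difference of the effects, FaDU minus JHU-029, was -0.36 (SE 0.12, adjusted p = 0.0752), and it passed the threshold without FaDU shControl replicate 2 (adjusted p = 0.0466) or without FaDU shTP63 replicate 2 (adjusted p = 0.0372).

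CXCL1 (probe set 8095697), another CXCR2 ligand, had intensities of 429, 489.5 and 416 in FaDU shTP63 and of 497, 472 and 581 in FaDU shControl. In JHU-029 it had 122, 147 and 98.4 with shTP63 and 116, 108 and 137 with shControl. The order was thus FaDU above JHU-029 with no overlap, and knockdown and control overlapping within each line. CXCL1 was 4.29-fold higher in FaDU shControl than in JHU-029 shControl (log2 difference 2.1, SE 0.14, adjusted p = 2.02e-08). The knockdown changes did not pass the test, at -0.22 in FaDU (95% interval -0.51 to 0.08, adjusted p = 0.29) and 0.01 in JHU-029 (-0.29 to 0.31, adjusted p = 0.99). JHU-029 means of 6.92 with shTP63 and 6.91 with shControl on the log2 scale also lay a little above the array medians.

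CXCL2 and CXCL3, the closest paralogs of CXCL1, had group means below the array medians, which were 6.52 to 6.56 in FaDU and 6.46 to 6.51 in JHU-029 on the log2 scale. CXCL2 (probe set 8100994) had 73.1, 86.3 and 72.9 in FaDU shTP63, 58.8, 61.5 and 75.6 in FaDU shControl, 34.0, 49.1 and 49.2 in JHU-029 shTP63 and 53.3, 38.9 and 45.2 in JHU-029 shControl. CXCL3 (probe set 8100984) had 58.8, 60.6 and 63.1 in FaDU shTP63, 54.1, 56.2 and 55.0 in FaDU shControl, 42.9, 41.9 and 36.5 in JHU-029 shTP63 and 39.0, 41.0 and 41.6 in JHU-029 shControl. FaDU again lay above JHU-029 on every array for both genes, and the 3 FaDU knockdown arrays lay above the 3 FaDU controls for CXCL3 but not for CXCL2. FaDU shControl exceeded JHU-029 shControl 1.43-fold for CXCL2 (adjusted p = 0.0111) and 1.36-fold for CXCL3 (adjusted p = 5.4e-05). The CXCL2 call was lost without FaDU shControl replicate 3 (adjusted p = 0.0532) or JHU-029 shControl replicate 2 (adjusted p = 0.0539). Neither gene passed the test after knockdown. CXCL2 differed by 0.25 in FaDU (95% interval -0.09 to 0.59, adjusted p = 0.278) and by -0.06 in JHU-029 (-0.4 to 0.27, adjusted p = 0.924), and CXCL3 by 0.14 (0 to 0.28, adjusted p = 0.135) and -0.01 (-0.15 to 0.13, adjusted p = 0.981). Because CXCL1, CXCL2 and CXCL3 have near-identical sequences, their probe sets may share signal, and the split between them is uncertain.

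In chromosomal order the cluster holds CXCL8, CXCL6, PF4V1, CXCL1, PF4, PPBP, CXCL5, CXCL3 and CXCL2, all 9 measured. The genes other than the 4 members lay between 0.1 and 0.25 in log2 difference, FaDU shControl minus JHU-029 shControl. CXCL6 and CXCL5, further neutrophil attractants of this cluster, differed by 0.25 (SE 0.08, adjusted p = 0.0183) and 0.1 (adjusted p = 0.297). The CXCL6 call was lost without any of 4 arrays (FaDU shControl replicates 2 and 3, JHU-029 shControl replicates 1 and 2), with adjusted p up to 0.0791. The platelet chemokine genes PF4V1, PF4 and PPBP, which were chosen for their position after values were seen, differed by 0.17 (adjusted p = 0.15), 0.19 (0.0199) and 0.12 (0.398). The PF4 call was lost under 6 alternatives, among them without FaDU shControl replicate 1 or JHU-029 shControl replicate 3 (0.0776 each). The control means of these 5 genes lay below the array medians, from 4.16 to 6.02 on the log2 scale, which limits what difference their probe sets could show.

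**Figure D2:**
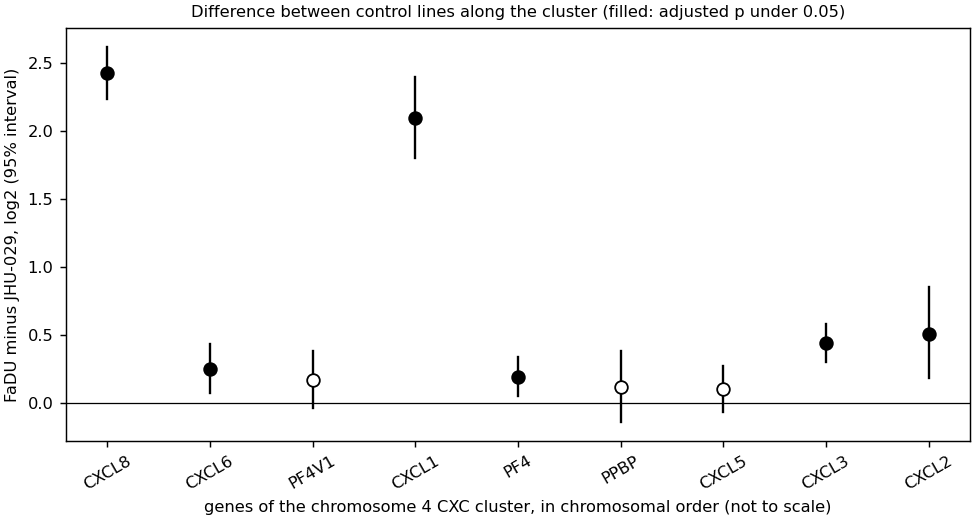
Difference between the lines along the chromosome 4 chemokine cluster. The vertical axis is the log2 difference, FaDU shControl minus JHU-029 shControl, with its 95% interval from limma (3 arrays a group), and the horizontal axis gives the 9 genes in chromosomal order with even spacing; CXCL8 (2.43) and CXCL1 (2.1) stand above the other 7, which lie between 0.1 and 0.51.

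CCL20 rose slightly with knockdown in both lines. CCL20 (probe set 8048864), the ligand of CCR6, had 78.9, 84.0 and 82.1 in FaDU shTP63 and 63.8, 59.5 and 77.3 in FaDU shControl. In JHU-029 it had 25.6, 27.3 and 30.1 with shTP63 and 18.5, 22.5 and 21.1 with shControl. None of the 4 groups overlapped, in the order FaDU shTP63, FaDU shControl, JHU-029 shTP63, JHU-029 shControl. All 4 group means were below the array medians, from 6.35 ± 0.0457 in FaDU shTP63 to 4.37 ± 0.144 in JHU-029 shControl on the log2 scale (SD, n = 3). The rise was 0.3 in FaDU (SE 0.1, 1.23-fold, adjusted p = 0.045) and 0.42 in JHU-029 (SE 0.1, 1.34-fold, adjusted p = 0.0433). The difference of the effects was -0.12 (95% interval -0.43 to 0.19, adjusted p = 0.665). Both calls were close to the threshold. The FaDU call was lost without any of the 3 FaDU shTP63 arrays, FaDU shControl replicate 1 or 2, JHU-029 shTP63 replicate 2 or JHU-029 shControl replicate 3 (adjusted p up to 0.156), and the change was 0.08 without both FaDU controls titled new (adjusted p = 0.701). The JHU-029 call held only without FaDU shControl replicate 2 or FaDU shControl replicate 3 and was lost without any of the other 10 arrays (adjusted p up to 0.179). CCL20 was 3.21-fold higher in FaDU shControl than in JHU-029 shControl (log2 difference 1.68, SE 0.1, adjusted p = 8.63e-09).

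CXCL14 fell in JHU-029 and had no detectable change in FaDU, where it was near the array median. CXCL14 (probe set 8114249) had 97.1, 96.9 and 108 in FaDU shTP63 and 107, 104 and 95.4 in FaDU shControl. In JHU-029 it had 1344, 1539.5 and 1756 with shTP63 and 3654, 3299.9 and 3384 with shControl. The JHU-029 knockdown arrays all lay below the JHU-029 control arrays, both lay above every FaDU array, and the FaDU groups overlapped. In JHU-029 the mean log2 intensity was 10.59 ± 0.193 with shTP63 and 11.75 ± 0.0766 with shControl (SD, n = 3), a fall of 2.24-fold (log2 change -1.16, SE 0.09, adjusted p = 4.32e-05). In FaDU the change was -0.02 (95% interval -0.22 to 0.18, adjusted p = 0.904). The effects differed by 1.14 (SE 0.13, adjusted p = 0.000156). FaDU shControl was 33.7-fold lower than JHU-029 shControl (log2 difference -5.08, SE 0.09, adjusted p = 3.83e-13), the largest difference between the lines among the 8 members and opposite in sign to that of the other 5 chemokines. The FaDU means of 6.65 ± 0.091 with shTP63 and 6.67 ± 0.0873 with shControl lay close to the array medians, so a fall there may not have been measurable.

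**Figure D3:**
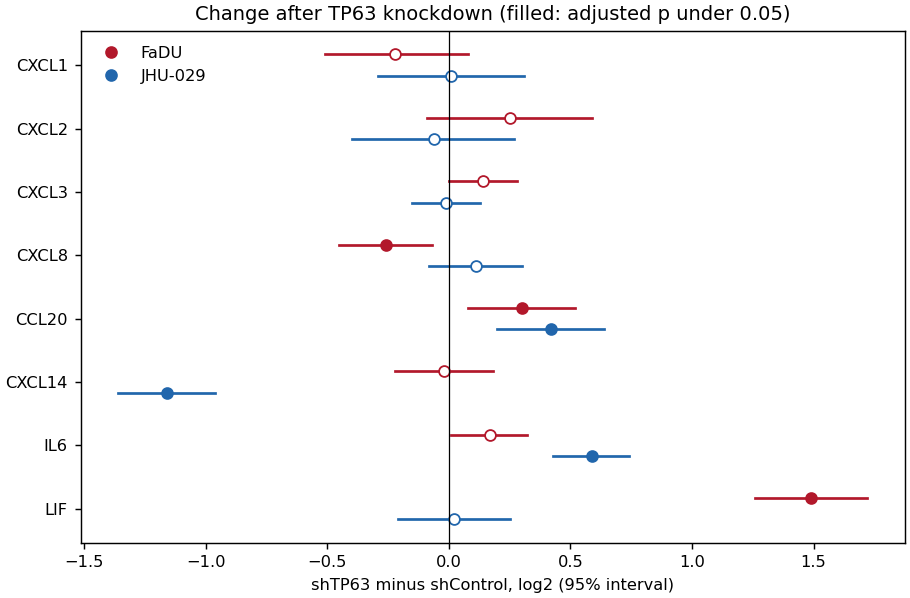
Change after TP63 knockdown for each of the 8 members. The horizontal axis is the log2 change, shTP63 minus shControl, with its 95% interval from limma (3 arrays a group); red is FaDU and blue JHU-029, and filled points have an adjusted p under 0.05. LIF stands apart in FaDU at 1.49 and CXCL14 in JHU-029 at -1.16, and the other 14 points lie between -0.26 and 0.59.

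IL6 rose in JHU-029. IL6 (probe set 8131803), the cytokine of the acute phase response, had 115, 112 and 121 in FaDU shTP63 and 102, 109.7 and 98.6 in FaDU shControl. In JHU-029 it had 258, 289 and 287 with shTP63 and 185, 199 and 171 with shControl. None of the 4 groups overlapped, JHU-029 shTP63 being highest and FaDU shControl lowest. The JHU-029 rise was 1.5-fold (log2 change 0.59, SE 0.07, adjusted p = 0.000994), and over the alternatives it stayed between 0.53 and 0.64. In FaDU the arrays separated as well, but the change of 0.17 did not pass the test (95% interval 0.01 to 0.32, adjusted p = 0.109). The effects differed by -0.42, FaDU minus JHU-029 (SE 0.1, adjusted p = 0.0168), a call that was lost without both FaDU controls titled new (-0.35, adjusted p = 0.109). FaDU shControl was 1.79-fold lower than JHU-029 shControl (log2 difference -0.84, SE 0.07, adjusted p = 3e-07).

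LIF rose in FaDU, the largest knockdown change among the 8 members in either line. LIF (probe set 8075310), a cytokine of the IL6 family that acts through LIFR, had 303, 324 and 358 in FaDU shTP63 and 119.5, 105 and 127 in FaDU shControl. In JHU-029 it had 52.9, 48.3 and 51.4 with shTP63 and 56.2, 52.6 and 42.2 with shControl. The 3 FaDU knockdown arrays stood above all others, the FaDU controls above all JHU-029 arrays, and the JHU-029 groups overlapped. Mean log2 intensity was 8.36 ± 0.121 in FaDU shTP63 and 6.87 ± 0.139 in FaDU shControl (SD, n = 3), a 2.81-fold rise (log2 change 1.49, SE 0.11, adjusted p = 9.7e-07) that stayed between 1.37 and 1.59 over the alternatives. In JHU-029 the change was 0.02 (95% interval -0.21 to 0.25, adjusted p = 0.963), and the effects differed by 1.46 (SE 0.15, adjusted p = 8.04e-05). The JHU-029 means of 5.67 with shTP63 and 5.64 with shControl lay below the array medians, so a small change there may not have been measurable. FaDU shControl was 2.34-fold higher than JHU-029 shControl (log2 difference 1.22, SE 0.11, adjusted p = 3.32e-07). LIF was thus called in FaDU and IL6, which signals through the same gp130 chain, in JHU-029. The FaDU groups separated for IL6 too, and its change there passed with the filter on dim genes (limma adjusted p = 0.0493). IL6 means in FaDU, 6.86 with shTP63 and 6.69 with shControl, lay a little above the array medians, so a small change may not have been measurable.

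Of 12 receptor genes measured, 4 rose and 1 fell in FaDU, against 12.4% and 14.2% of all genes, and none passed the test in JHU-029, against 3.15% of all genes called there. LIFR, the receptor of LIF, rose by 0.64 in FaDU (SE 0.07, adjusted p = 4.24e-05), against a change of 0.19 in JHU-029 that was not called (adjusted p = 0.229), and the effects differed by 0.45 (adjusted p = 0.0137). IL6ST rose by 0.28 in FaDU (SE 0.05, adjusted p = 0.00186), against 0.19 in JHU-029 (adjusted p = 0.0813), and the difference of the effects, 0.09, did not pass the test (adjusted p = 0.549). IL6ST passed in JHU-029 with the filter on dim genes (0.021), a variance prior with a trend (0.0299) and without FaDU shControl replicate 1 (0.049). IL6R, the receptor of IL6, fell by 0.34 in FaDU (adjusted p = 0.000813) and had a change of -0.02 in JHU-029 (adjusted p = 0.942). CSF2RA, the receptor chain for GM-CSF, rose by 0.45 (adjusted p = 0.0112) and ACKR2, a scavenger receptor of chemokines, by 0.47 (adjusted p = 0.0184), both in FaDU. The CSF2RA call was lost without both FaDU controls titled new (0.27, adjusted p = 0.23). The ACKR2 call was lost in the same way (adjusted p = 0.151) and without FaDU shControl replicate 1 (0.0796) or FaDU shTP63 replicate 1 (0.0698). The median change of the 12 receptors was 0.02 in FaDU and -0.02 in JHU-029.

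**Figure D4:**
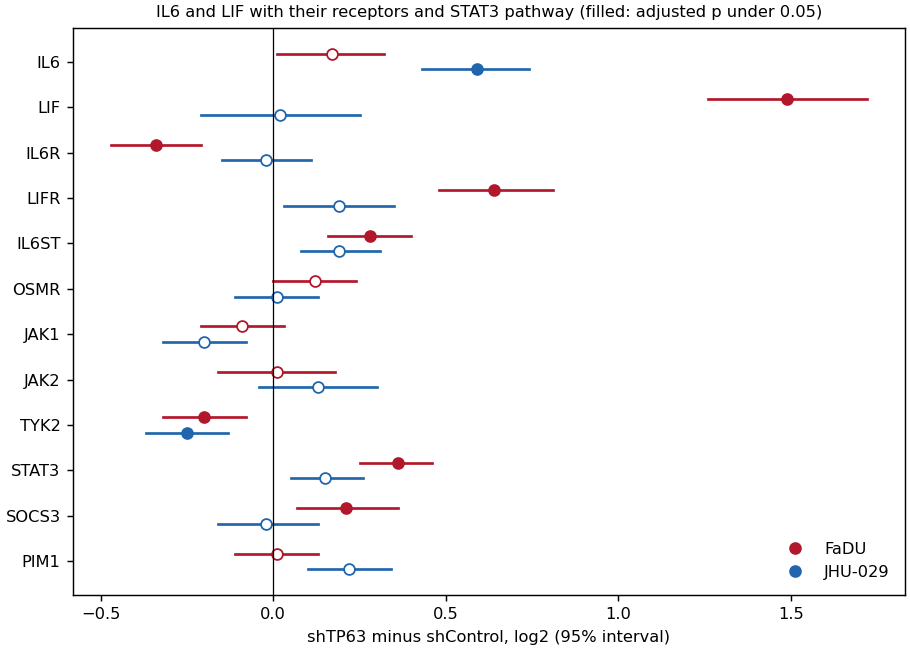
Change after TP63 knockdown for IL6, LIF, their receptor chains and the kinases and STAT3 below them. The horizontal axis is the log2 change, shTP63 minus shControl, with its 95% interval from limma (3 arrays a group), red for FaDU and blue for JHU-029, and filled points have an adjusted p under 0.05; LIF, LIFR, STAT3 and IL6ST rose and IL6R fell in FaDU, IL6 rose in JHU-029, TYK2 fell in both lines and SOCS3 rose in FaDU.

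Below the gp130 receptors, STAT3, the transcription factor that these cytokines activate, rose by 0.36 in FaDU (SE 0.05, adjusted p = 0.000156), against a change of 0.15 in JHU-029 (adjusted p = 0.136). The difference of the effects was 0.21 (SE 0.07, adjusted p = 0.0726). It passed with quantile normalisation (0.0383), cyclic loess (0.025), the filter on dim genes (0.0195) and a variance prior with a trend (0.00642), and STAT3 in JHU-029 passed under the last pair of settings (0.0374 and 0.0127). Of 11 genes of this signalling list, 2 rose and 2 fell in FaDU, against 12.4% and 14.2% of all genes, and 1 fell in JHU-029, against 1.35%. SOCS3, the feedback inhibitor that STAT3 induces, rose by 0.21 in FaDU (adjusted p = 0.0325), and this call was lost without any of 4 FaDU arrays (shTP63 replicates 1 and 2, shControl replicates 1 and 3), with adjusted p up to 0.116, and without both FaDU controls titled new (adjusted p = 0.14). TYK2, a kinase of the JAK family, fell by 0.2 in FaDU (adjusted p = 0.0139) and by 0.25 in JHU-029 (adjusted p = 0.0261). The FaDU call was lost without FaDU shTP63 replicate 3 or FaDU shControl replicate 1 (adjusted p up to 0.0587) or without both controls titled new (adjusted p = 0.152), and the JHU-029 call without any of the 6 JHU-029 arrays. PTPN11, a phosphatase that binds gp130, fell by 0.18 in FaDU (adjusted p = 0.0415), a call lost without any of 8 of the 12 arrays (the exceptions being FaDU shControl replicate 3, JHU-029 shTP63 replicate 1 and JHU-029 shControl replicates 1 and 3), with adjusted p up to 0.142, and the change was -0.11 without both controls titled new. In JHU-029 the PTPN11 change was in the other direction, at 0.21, and was not called (adjusted p = 0.0947). It passed there with the filter on dim genes (0.028) and a variance prior with a trend (0.0127). The list's median change was 0.01 in each line, against 0.02 over all genes in FaDU and 0 in JHU-029.

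Among regulators that act on chemokine and cytokine genes, calls went in both directions. Of 17 NF-kB genes measured, 5 rose and 3 fell in FaDU (median 0.05), against 12.4% and 14.2% of all genes. None passed the test in JHU-029 (median -0.02), against 3.15% of all genes, though NFKB2 (-0.18, adjusted p = 0.0242) and TNIP1 (-0.22, adjusted p = 0.0273) did with the filter on dim genes. TNFAIP3 and TNIP1, which restrain NF-kB signalling, fell by 0.65 (adjusted p = 8.48e-06) and 0.35 (adjusted p = 0.00133) in FaDU, whereas CYLD, a deubiquitinase that also restrains it, rose by 0.69 (adjusted p = 0.000107). BCL3, a nuclear partner of NF-kB, rose by 0.55 (adjusted p = 1.38e-05), and NFKBIA, the inhibitor that holds NF-kB in the cytoplasm, and NFKB2, an NF-kB subunit, rose by 0.21 and 0.22 (adjusted p = 0.00474 and 0.00633). IKBKB, the kinase that acts on NFKBIA, fell by 0.25 (adjusted p = 0.00604), a call lost without both FaDU controls titled new (adjusted p = 0.109). Of 12 AP-1 and C/EBP genes, 2 rose and 3 fell in FaDU (median -0.05), against 12.4% and 14.2% of all genes, and none was called in JHU-029 (median -0.1), against 3.15%. ATF3 and FOSL1 fell by 0.61 and 0.44 (adjusted p = 7.58e-05 and 0.000168), FOSB by 0.22 (adjusted p = 0.0424, up to 0.142 and lost without any of 9 of the 12 arrays, the exceptions being FaDU shTP63 replicate 2, JHU-029 shTP63 replicate 1 and JHU-029 shControl replicate 1), and CEBPB and CEBPD each rose by 0.37 (adjusted p = 0.0011 and 0.00343). Of 7 regulators that control the decay of AU-rich mRNAs, a class to which many cytokine mRNAs belong, none rose and 2 fell in FaDU (median -0.11), against 12.4% and 14.2% of all genes. In JHU-029, 1 of the 7 fell (median -0.02), against 1.35% of all genes that fell. ZFP36L2, which promotes such decay, fell by 0.27 in FaDU (adjusted p = 0.0122) and by 0.47 in JHU-029 (adjusted p = 0.00321). The FaDU call of ZFP36L2 was lost without both FaDU controls titled new (adjusted p = 0.0623). HNRNPD, an AU-rich element binding protein, fell by 0.38 in FaDU (adjusted p = 0.000187).

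**Figure D5:**
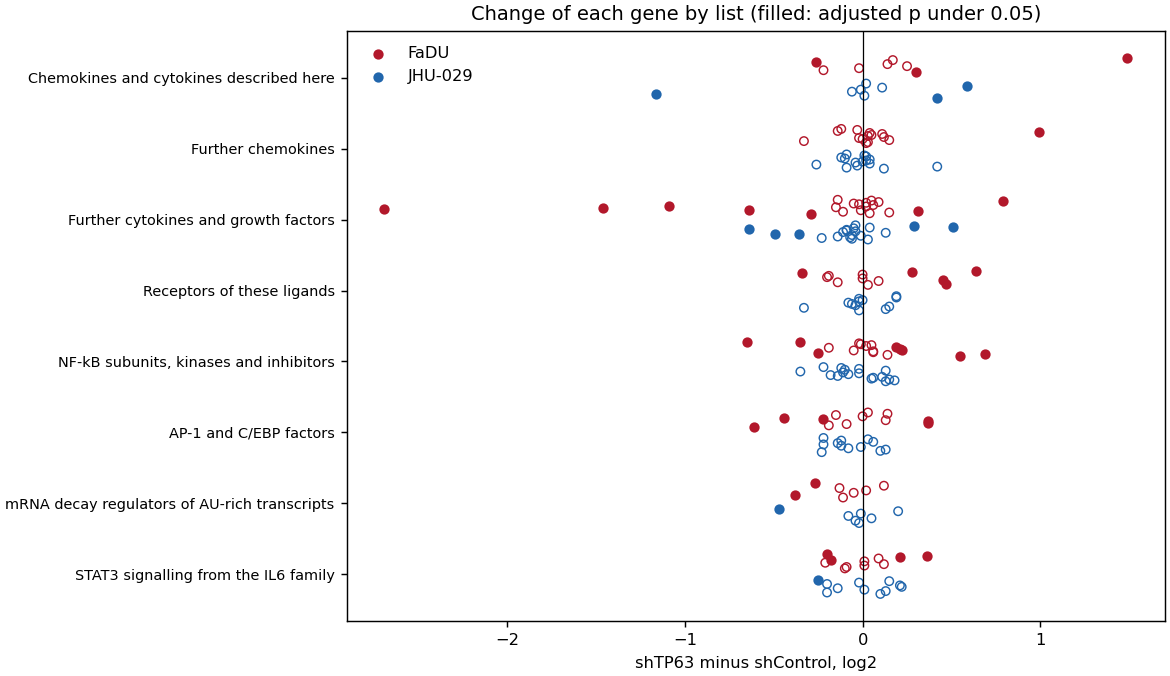
Change after TP63 knockdown of every measured gene in the gene lists around the members. The horizontal axis is the log2 change, shTP63 minus shControl, each point is a gene, rows are the gene lists, red is FaDU and blue JHU-029, and filled points have an adjusted p under 0.05; IL1A at -2.69 in FaDU is the lowest point among the further cytokines and CXCL17 at 0.99 in FaDU the highest among the further chemokines.

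Of 15 further chemokines measured, 1 rose and none fell in FaDU (median 0.03), against 26.6% of all genes called, and none was called in JHU-029 (median 0), against 3.15%. The riser was CXCL17, a mucosal chemokine, which rose by 0.99 in FaDU (SE 0.13, adjusted p = 0.000137) and had a change of -0.12 in JHU-029 (adjusted p = 0.81). Of 20 further cytokines, 2 rose and 5 fell in FaDU (median -0.01), against 12.4% and 14.2% of all genes, and 2 rose and 3 fell in JHU-029 (median -0.06), against 1.80% and 1.35%. In FaDU, IL1A and IL1B, the alarm cytokines of keratinocytes, fell by 2.69 (adjusted p = 1.95e-08) and 1.46 (adjusted p = 1.92e-07), and IL24 and IL18, other cytokines of keratinocytes, by 1.09 and 0.64 (adjusted p = 6.34e-05 and 0.000233). IL15, a growth factor of T and NK cells, rose by 0.31 there (adjusted p = 0.00461). In JHU-029, IL36G, a relative of IL1, fell by 0.64 (limma adjusted p = 0.000285). TNFSF10, the death ligand TRAIL, rose in both lines, by 0.79 in FaDU (adjusted p = 1.27e-05) and 0.51 in JHU-029 (adjusted p = 0.00425). In JHU-029, IL1A fell by 0.49 (adjusted p = 0.0425) and IL1B by 0.36 (adjusted p = 0.0385), and TNFSF15, a cytokine of the TNF family, rose by 0.29 (adjusted p = 0.0459), but each of these 3 calls was lost without any of the 6 JHU-029 arrays. The IL1A call was also lost without FaDU shControl replicate 3, and the TNFSF15 call without FaDU shControl replicate 2 or FaDU shTP63 replicate 1 or 2.

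Over the 12 arrays, with each line's mean removed, the genes most like a called member in pattern were listed by Pearson correlation. The points are arrays that share the 4 groups, and these correlations are descriptions. LIF was nearest to ATP6V1G1 (r = 0.986), GFPT1 (0.985) and SELENOT (0.983). IL6 was nearest to CLDN1 (0.969), KIF20B (0.964) and ZDHHC21 (0.959). CXCL14 was nearest to PFKFB4 (0.969), ADH7 (0.968) and FOXP2 (0.964). CCL20 was nearest to DPYSL3 (0.947), SPC25 (0.943) and ZCCHC17 (0.941), and CXCL8 to TPM4 (0.916), CFAP126 (0.911) and GEMIN2 (0.903).

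Markers of the cultures were read beside these results. General epithelial markers (6 of 6) lay above the array medians in all 4 groups. Of these, 1 rose and 2 fell in FaDU, against 12.4% and 14.2% of all genes, and 2 rose in JHU-029, against 1.80%. Squamous keratinocyte markers, 6 of 8 measured, had a summed intensity of 5033 to 5402 in FaDU shTP63, 11049 to 11477 in FaDU shControl, 24640 to 26711 in JHU-029 shTP63 and 26974 to 29102 in JHU-029 shControl. In FaDU 5 of the 6 fell, against 14.2% of all genes, and in JHU-029 none was called, against 3.15% of all genes. Immune cell markers (6 measured) summed to 378 to 405 in FaDU shTP63 and 322 to 346 in FaDU shControl, with PTPRC, the defining gene, at a mean log2 intensity of 3.55 and 3.42. LYZ (0.76, limma adjusted p = 0.00185) and CD14 (0.51, adjusted p = 0.00102) rose in FaDU, 2 of 6, against 12.4% of all genes, and the other 4 were not called. LYZ lay below the array medians, at 4.89 with shTP63 and 4.13 with shControl. Endothelial markers (5 measured) summed to 883 to 968 in FaDU shTP63 and 517 to 542 in FaDU shControl. CDH5, the highest of them (mean log2 intensity 9.69 and 8.69), rose by 1 in FaDU (limma adjusted p = 1.25e-06). It was 1 of 5 to rise, against 12.4% of all genes, and the other 4 were not called. Their changes in FaDU were 0.04 for PECAM1, -0.01 for VWF, -0.22 for KDR and -0.01 for TEK. PECAM1, a defining gene, was at 4.49 and 4.46 there. Fibroblast markers (6 measured) had no call in either line, against 26.6% of all genes called in FaDU and 3.15% in JHU-029. The called markers moved in FaDU beside LIF, LIFR and CXCL8, and their part in the result was not tested.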

How the data were processed

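Gene expression was measured on 12 single-channel Affymetrix Human Gene ST arrays, 3 for each of 4 groups. The deposited values are linear intensity that the authors made by RMA (background correction, quantile normalisation and median-polish summary), per the submitters' processing notes, which also name R 2.15.1; the RMA implementation, probe set definition and genome build are not given in the sources used here. Values were log2 transformed. Of 32321 probe sets, 19158 had 1 gene symbol in the platform annotation and 1388 several, and the probe set with the highest mean stood for each of 18404 genes (637 had more than 1).

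limma 3.58.1, run in R 4.3.3, fitted 1 mean per group over the 12 arrays together (8 residual and 4.17 prior degrees of freedom), two-sided, with Benjamini-Hochberg adjustment over all 18404 genes and a threshold of 0.05. "Rose", "fell" and "called" mean an adjusted p under that threshold. Contrasts were shTP63 minus shControl in each line, their difference (FaDU minus JHU-029) and FaDU minus JHU-029 under shControl. The fit was tested on simulated data.

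The members, lists and motifs were chosen with earlier results of these data known. Named genes were the members, up to 4 genes per list, direction and line, and the 3 nearest patterns per called member; others are said to be chosen after their values were seen. Arrays with the same number did not deviate together (correlations -0.0811, -0.067 and 0.0134 in FaDU and -0.339, -0.0104 and -0.199 in JHU-029). Between arrays with different numbers the correlations were -0.0521 to 0.112 in FaDU and -0.133 to 0.294 in JHU-029. Whether any arrays shared a batch was not tested. The numbers are those of the sample descriptions, and the FaDU titles number the arrays otherwise. Arrays of a group correlated at 0.993 to 0.997. No pair of them held identical values (0 of 12 pairs; SD of log2 differences 0.12 to 0.197), so each was counted as a sample, which does not show that they came from separate cultures. The number of arrays limits the precision. Sequences are from RefSeq. TP63 is not reported.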

Additional observations from a re-analysis of the deposited data

Results flagged for a closer look

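A difference between the lines passed the test (limma, adjusted p under 0.05) for 27 of the members, list genes and markers named with a knockdown change: 3 of 8 members, 21 of 32 named list genes and 3 markers of other cell types. Over all genes the share was 13.2%. The list genes and markers were named because they had passed the test for a knockdown change. That choice favours a difference between the lines, so their counts cannot be compared with this share. The values are log2 differences, FaDU effect minus JHU-029 effect, and each is given without an explanation.

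Among the members, the effects differed by 1.14 for CXCL14, 1.46 for LIF and -0.42 for IL6. CXCL14 and LIF held their calls under all alternatives that give this contrast, 20 for CXCL14 and 19 for LIF. The IL6 call was lost without both FaDU controls titled new and with a fixed replicate block.

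Of the other cytokines and chemokines, the effects differed by -2.2 for IL1A, -1.1 for IL1B, -1.05 for IL24, -0.58 for IL18, 0.45 for IL15, 0.58 for IL36G and 1.11 for CXCL17, and these 7 were called under all alternatives. In JHU-029, IL24 (mean log2 intensity 4.87 with shTP63 and 4.91 with shControl) and CXCL17 (5.24 and 5.36) lay below the array medians. IL36G did so in FaDU (5.56 and 5.62) and IL15 in all 4 groups, which limits what change their probe sets could show there. The effects differed by 0.45 for LIFR and -0.32 for IL6R among the receptors. Among NF-kB genes they differed by -0.54 for TNFAIP3, 0.41 for NFKB2, 0.42 for BCL3, 0.54 for CYLD, 0.29 for NFKBIA and -0.3 for IKBKB. The rest were 0.45 for CEBPB, 0.38 for CEBPD, -0.3 for FOSL1, -0.38 for ATF3, -0.34 for HNRNPD and -0.39 for PTPN11. Among the markers of other cell types, the effects differed by 1.11 for CDH5, 0.81 for LYZ and 0.5 for CD14.

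In all, 13 of the 27 kept their call throughout: CXCL14, LIF, the 7 cytokines and chemokines above, TNFAIP3, NFKB2, BCL3 and CDH5. The other 14 lost it under at least 1 alternative. CEBPD and FOSL1 lost it under 13 alternatives each, IKBKB under 12, ATF3 under 10, IL6R and CD14 under 6 and LYZ under 4, in each case including some of the single arrays left out. LIFR, NFKBIA and HNRNPD lost it with a fixed replicate block, and CYLD, CEBPB and PTPN11 without both FaDU controls titled new.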

How the results depend on the processing

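No member changed direction past the threshold under any alternative: of 32 member results, 25 kept their side of the threshold throughout and 7 did not (the cause was not tested). The count of members called in FaDU, 3, was 1 with quantile normalisation, cyclic loess, each line fitted alone or a random replicate block, and 1 to 3 leaving out each array. With quantile normalisation, adjusted p was 0.0791 for CCL20 and 0.0755 for CXCL8 in FaDU and 0.0523 for CCL20 in JHU-029. IL6 passed in FaDU with the dim filter (0.0493). For CXCL8, the difference of the knockdown effects passed with the dim filter (0.0299) and a variance prior with a trend (0.0468). It was -0.51 without both FaDU controls titled new. The CXCL2 call for FaDU minus JHU-029 under shControl was lost with cyclic loess (0.0627). Without both controls titled new, the lone FaDU control was assumed to vary like the other groups. In JHU-029 3 members were called, 2 to 3 without each array. The difference of the knockdown effects had 3 members, 3 to 4 without each array. FaDU minus JHU-029 under shControl had 8, 4 with the filter on dim genes (9202 genes, 4 members left) and 7 to 8 without each array. Over all genes, the calls in JHU-029, 580, were 1014 with the dim filter, 1015 with a variance prior with a trend, 172 with a fixed replicate block and 229 to 626 without each array; the 5 lowest, 229 to 273, came without JHU-029 shControl replicate 1, 2 or 3 or JHU-029 shTP63 replicate 2 or 3. The calls in FaDU, 4900, were 4321 to 4925 without each array. The difference, 2433, was 1395 with a fixed replicate block and 1702 to 2509 without each array. FaDU minus JHU-029, 11739, was 7744 with the dim filter and 10725 to 11869 without each array. Same-numbered arrays did not deviate together, so the numbers were not taken as pairs; with a fixed replicate block, 2 members were called in FaDU, 2 in JHU-029 and 2 in the difference. The fixed block gives no contrast between the lines, and each line fitted alone gives no difference. Of 184 results of genes outside the members, 135 kept their side of the threshold in all alternatives, 49 did not and 0 reversed. Depth does not apply to arrays. Probe sets near or below the array median, such as CXCL2, CXCL3, CCL20, CXCL14 in FaDU, IL6 in FaDU and LIF, CXCL1 and CXCL8 in JHU-029, limit what a small change can show.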

Other observations

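Under shControl, of 15 further chemokines 3 were higher and 6 lower in FaDU than in JHU-029, a share no larger than the 63.8% of all genes called in this contrast. CCL28, a mucosal epithelial chemokine that acts through CCR10, had a mean log2 intensity of 4.64 in FaDU shControl and 9.25 in JHU-029 shControl (log2 difference -4.61, SE 0.09, limma adjusted p = 8.71e-13). The FaDU value lay far below the array medians, so no fold is given for it. CXCL16, the ligand of CXCR6, was 4.46-fold lower in FaDU (-2.16, adjusted p = 2.79e-11), and CCL5, a T cell attractant, 3.62-fold lower (-1.86, adjusted p = 3.15e-10). These 3 genes were chosen after their values were seen. None of them was called after knockdown in either line, with changes of 0.15 for CCL28, 0.04 for CXCL16 and 0 for CCL5 in FaDU and of -0.03, -0.1 and -0.26 in JHU-029. CCL28 passed the test in FaDU without FaDU shControl replicate 2 (0.27, adjusted p = 0.0202), and CCL5 in JHU-029 with the filter on dim genes (-0.26, adjusted p = 0.0365).

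Antisense RNAs at IL6 and LIF, also chosen after their values were seen, were measured by probe sets of their own. Mean log2 intensities lay below the array medians in all 4 groups, which limits what change these probe sets could show. They ran from 5.33 to 6.3 for LIF-AS2 and from 4.9 to 5.63 for IL6-AS1. LIF-AS2 rose by 0.46 in FaDU (SE 0.11, adjusted p = 0.00825), the line in which LIF rose, and had a change of 0.05 in JHU-029 (adjusted p = 0.914). IL6-AS1 rose by 0.44 in JHU-029 (SE 0.1, adjusted p = 0.0302), the line in which IL6 rose, and had a change of 0.06 in FaDU (adjusted p = 0.705). The differences of the knockdown effects did not pass the test, at 0.41 for LIF-AS2 (adjusted p = 0.12) and -0.38 for IL6-AS1 (adjusted p = 0.0987). LIF-AS2 passed that test without JHU-029 shTP63 replicate 1 (0.55, adjusted p = 0.00956) and IL6-AS1 without FaDU shControl replicate 3 (-0.46, adjusted p = 0.0454). The IL6-AS1 rise was lost without any of 5 JHU-029 arrays (all shControl replicates and shTP63 replicates 2 and 3), with adjusted p up to 0.135. The LIF-AS2 rise was lost without both FaDU controls titled new (0.48, adjusted p = 0.0817). Whether the probe sets tell the antisense RNA from the gene on the other strand was not tested.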
